A study of Homo sapiens with 3 samples.

Results

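ANGPTL4, other genes known to respond to fatty acids through the PPAR receptors (PDK4, CPT1A, ADFP, CD36, FABP4 and FABP3) and the receptor gene PPARD were followed across 3 populations of a human melanoma line. Members were chosen by gene symbol, among 30982 gene names on the array, with their signals on these arrays already known, so their own folds are given as a description and carry no test. The 8 genes have 12 probes, each printed as a single spot. Of the 8 genes, 6 were well above background on at least 1 array.

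PPARs are nuclear receptors that bind fatty acids and their derivatives, pair with an RXR receptor and switch on genes for the uptake, storage and burning of fat. ANGPTL4 is among their best known targets, a secreted protein that inhibits lipoprotein lipase, the enzyme that frees fatty acids from circulating triglyceride. PDK4 restrains pyruvate entry into the citric acid cycle, CPT1A performs the controlling step of fatty acid import into mitochondria, and ADFP (now named PLIN2) coats lipid droplets. CD36 takes up fatty acids at the cell surface, FABP3 and FABP4 carry them in the cytosol, and PPARD encodes the receptor PPAR-delta.

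The line, 1205Lu, was derived from a lung metastasis that WM793 melanoma cells formed in mice. The original monolayer (OM) had been kept for 14 days in RPMI-1640 with 10% FCS, the melanoma bodies (MB) are aggregates grown for 14 days in hESC medium, which holds 20% KnockOut serum replacement in place of FCS, and the new monolayer (NM) came from bodies of 14 days that then spent 10 days in RPMI-1640 with 10% FCS, with remaining bodies removed. Medium and growth form changed together between MB and the monolayers, so they cannot be told apart, and the labels name no further treatment of any population. Each population is 1 Agilent 1-colour array of total RNA, all on 1 slide, so there are no replicate cultures and no p-value is given.

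Signals are Agilent's processed intensities in arbitrary units (a.u.), followed by the SD that the Feature Extraction error model assigns to the spot. Before ratios were taken, each array was divided by its mean of GAPDH, ACTB and HSP90AA1, with factors of 0.978 for MB and 0.877 for NM relative to OM. A fold written "at least" has a dimmer side that was not well above background, and it is then taken against that probe's signal or, if higher, the lowest signal that still counted as well above background on the array (20.9, 19.4 and 29.1 a.u. on OM, MB and NM before scaling). Probes printed in 10 spots gave a spread of the log2 ratio of MB to OM of 0.24 (SD over spots) at 20 to 100 a.u., 0.08 at 100 to 1000 a.u. and 0.04 above that, whereas the error model gives 0.20 or more for a single spot, and neither holds the variation between cultures. Among 10 markers of melanocytes and melanoma, 8, 8 and 7 were well above background on OM, MB and NM, including SOX10 and S100B, while TYR and TYRP1, the pigment enzymes, were at background on all 3.

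A probe of each of 6 members is shown because each value rests on 60 bases of a transcript. For ANGPTL4, CPT1A and ADFP it is the probe behind the values, and for PDK4, FABP3 and PPARD it is the dimmer probe, which does not stand for the gene in the counts. Their positions are in hg17, as the scanner files give them, and the sequences run 5′ to 3′ along the transcript. The ANGPTL4 probe lies at chr19:8345169-8345228 on the plus strand, and its first 30 bases are given. The CPT1A probe lies at chr11:68283639-68283698 and the ADFP probe at chr9:19106370-19106429, both on the minus strand, as are the PDK4 probe at chr7:94860980-94861039 and the FABP3 probe at chr1:31509410-31511359. The last of these spans 1950 genomic bases, so its 60 bases cross at least 1 intron. The PPARD probe lies at chr6:35499821-35499880 on the plus strand.
ANGPTL4: tgtaggtcccctggggacacaagcaggcgc
CPT1A: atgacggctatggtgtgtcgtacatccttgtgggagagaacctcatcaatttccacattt
ADFP: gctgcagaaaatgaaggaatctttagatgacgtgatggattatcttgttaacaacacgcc
PDK4: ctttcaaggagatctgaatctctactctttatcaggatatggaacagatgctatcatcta
FABP3: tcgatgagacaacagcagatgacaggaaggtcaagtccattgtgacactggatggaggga
PPARD: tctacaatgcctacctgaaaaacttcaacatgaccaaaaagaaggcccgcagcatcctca

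ANGPTL4 was bright in the melanoma bodies and close to background in both monolayers. Its signal was 4.93 a.u. on OM, not well above background, 4456 ± 446 a.u. on MB and 40.0 ± 7.75 a.u. on NM. After scaling, MB exceeded OM at least 218-fold (log2 ratio 7.77 or more) and NM by a log2 ratio of 6.64 ± 0.31 (error model). None of the 22194 genes with a fold or bound had a larger value for MB over OM, and none of 21035 for MB over NM, but a bound can lie below the true ratio, so neither is a rank of the true ratios. In RNA of whole cultures, more cells that make a transcript and more transcript per cell cannot be told apart. NM was at least 2.18-fold above OM, which is a bound close to the lowest signal the arrays separate from background.

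A single spot carries the ANGPTL4 value. On MB it was read over 61 pixels with a mean of 4514 a.u. and a pixel SD of 381 a.u., 8.44% of the mean, against a local background of 43 a.u., and no array marked it as an outlier. Of the 24 spots within 2 positions of it, 0 were bright on MB with neither monolayer well above background. The ANGPTL4 spot, well above background on NM, misses that mark too, so the count does not bear on a local artefact. Median signals of the surrounding spots were 406, 444 and 297 a.u. on OM, MB and NM.

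CPT1A and PDK4 were higher in the melanoma bodies than in either monolayer by amounts of 2- to 3-fold. The CPT1A signal was 393 ± 39.6 a.u. on OM, 1006 ± 101 a.u. on MB and 330 ± 33.7 a.u. on NM. MB was 2.62-fold above OM (log2 ratio 1.39 ± 0.21, error model) and 2.74-fold above NM (1.45 ± 0.21), whereas NM and OM differed by a log2 ratio of −0.06 ± 0.21, within the error of the spots.

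PDK4 has a pair of probes. The probe at chr7:94857958-94858017 gave 87.0 ± 10.5 a.u. on OM, 221 ± 22.8 a.u. on MB and 89.5 ± 12.1 a.u. on NM. MB was 2.61-fold above OM (log2 ratio 1.38 ± 0.23) and 2.22-fold above NM (1.15 ± 0.25), and the log2 ratio of NM to OM was 0.23 ± 0.26, again within the error. The PDK4 probe whose sequence is printed above was at background on all 3 arrays (4.85 to 7.24 a.u.), so the PDK4 values rest on the other probe alone. With normexp background correction PDK4 fell short of 2-fold, with log2 ratios of MB to OM and to NM of 0.88 and 0.67, and its ratio of MB to NM also did so with quantile normalization (0.90) and spike-in scaling (0.97).

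ADFP was also highest on MB, with smaller differences. Its signal was 2415 ± 242 a.u. on OM, 4304 ± 430 a.u. on MB and 2905 ± 291 a.u. on NM. MB was 1.82-fold above OM (log2 ratio 0.87 ± 0.20) and 1.33-fold above NM (0.41 ± 0.20), and NM was 1.37-fold above OM (0.46 ± 0.20), so no pair reached 2-fold.

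The FABP3 symbol covers probes that do not read the same strand. The probe on the RefSeq transcript, printed above, gave 5.71 a.u. on OM and 7.80 a.u. on NM, neither well above background, and 30.6 ± 6.04 a.u. on MB, at least 1.5-fold above OM, with no fold over NM. The other FABP3 probe, designed on an EST at chr1:31511618-31511677, runs along the plus strand, whereas RefSeq places FABP3 on the minus strand. It gave 296, 474 and 308 a.u. on OM, MB and NM, with log2 ratios of MB to OM and to NM of 0.71 ± 0.21 and 0.46 ± 0.21. As the probe with the higher signal it stands for FABP3 in the counts, although its strand is not that of the FABP3 mRNA.

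PPARD, the receptor among the members, had its highest signal on NM, whereas the other measured members were highest on MB. The probe at chr6:35503787-35503846 gave 3042 ± 304 a.u. on OM, 3366 ± 337 a.u. on MB and 4621 ± 462 a.u. on NM. MB and OM differed by a log2 ratio of 0.18 ± 0.20, within the error, and this sign turned with spike-in scaling (−0.13). NM was 1.73-fold above OM (0.79 ± 0.20) and MB 1.53-fold below NM (−0.61 ± 0.20). The PPARD probe printed above gave 45.6, 55.0 and 71.2 a.u. on OM, MB and NM and log2 ratios of 0.30 and −0.53 for MB against OM and NM and of 0.83 for NM against OM, the same order of arrays as the other probe.

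CD36 and FABP4 were at background on all arrays. The CD36 probes gave 4.30 to 7.33 a.u. and the FABP4 probe 4.13 to 9.64 a.u., and no fold is given for either gene. These signals lie below the lowest signals that counted as well above background, so they bound the transcripts from above and do not show that they are absent.

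**Figure D1:**
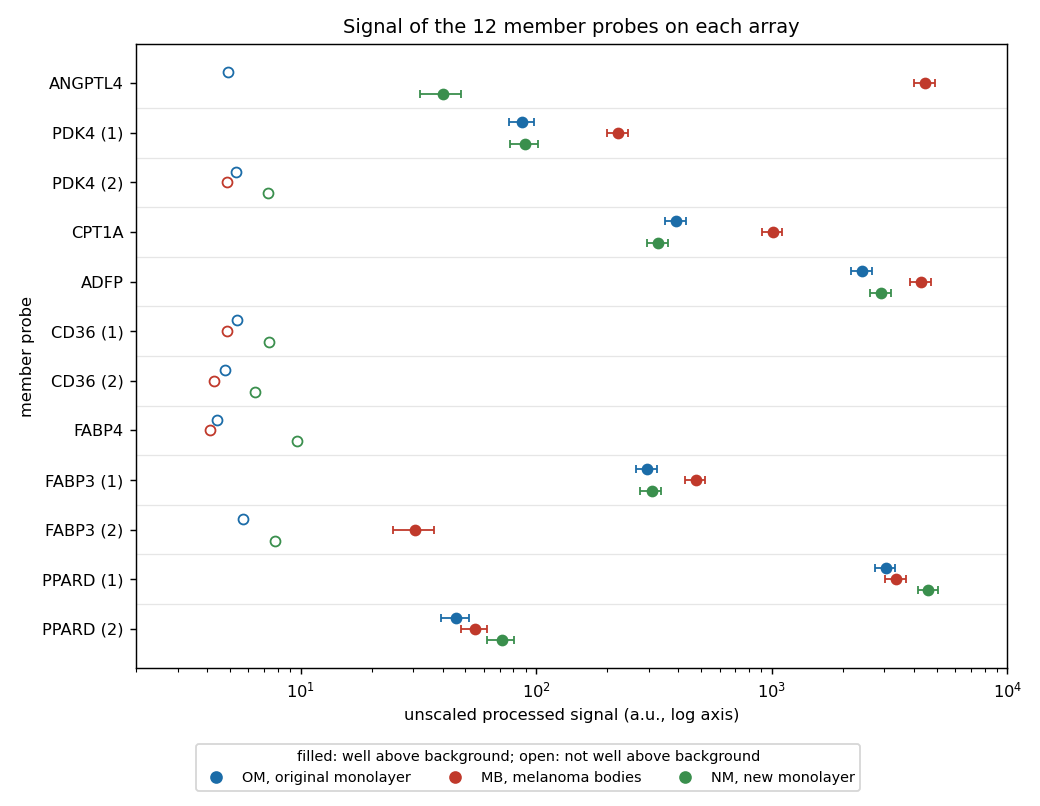
Unscaled processed signal of the 12 member probes (a.u., log axis) on the OM, MB and NM arrays, with 1 array per population. Bars are 1 SD of Agilent's error model and are drawn on filled symbols only, open symbols were not well above background, and (1) and (2) number the probes of a gene by signal, FABP3 (1) being the probe on the opposite strand. The MB symbol lies to the right of both monolayers for ANGPTL4, PDK4 (1), CPT1A, ADFP and both FABP3 probes, and the NM symbol lies farthest right for both PPARD probes.

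Of the 6 members that could be compared, 3 (ANGPTL4, PDK4 and CPT1A) were 2-fold or more higher on MB than on OM and 0 were lower. Across all 22209 genes tested, 6.66% were 2-fold or more higher on MB than on OM and 4.65% lower. ANGPTL4 alone passed 5-fold, the fold used by the study, which 0.824% of genes passed. The study also required a minimum raw signal, which was not applied to this share. The same 3 members were 2-fold or more higher on MB than on NM and 0 were lower, where 12.4% of 21925 genes were higher, 9.86% lower and 1.83% higher by 5-fold, again with ANGPTL4 as the single member past 5-fold. From OM to NM 1 member, ANGPTL4, was 2-fold or more higher by its bound and 0 were lower, beside 4.58% and 5.9% of 21587 genes. Since these signals were in view when the members were chosen, nothing is read from the members' counts against those of all genes.

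The median log2 ratio of the 6 members was 1.12 and 0.81 for MB against OM and NM and 0.35 for NM against OM. Dim signals were taken at their own value or, if higher, the lowest signal well above background. Over all genes tested the medians were 0.08, 0.00 and 0.08. Among genes past 2-fold between MB and OM, 58.9% were higher on MB, and this share was 40.2% with 75th percentile scaling, 48.0% with quantile normalization and 29.0% with spike-in scaling. For MB over NM the share of 55.7% became 67.6% without scaling and 41.3% with spike-ins, and for NM over OM the share of 43.7% became 27.1% and 32.6%.

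**Figure D2:**
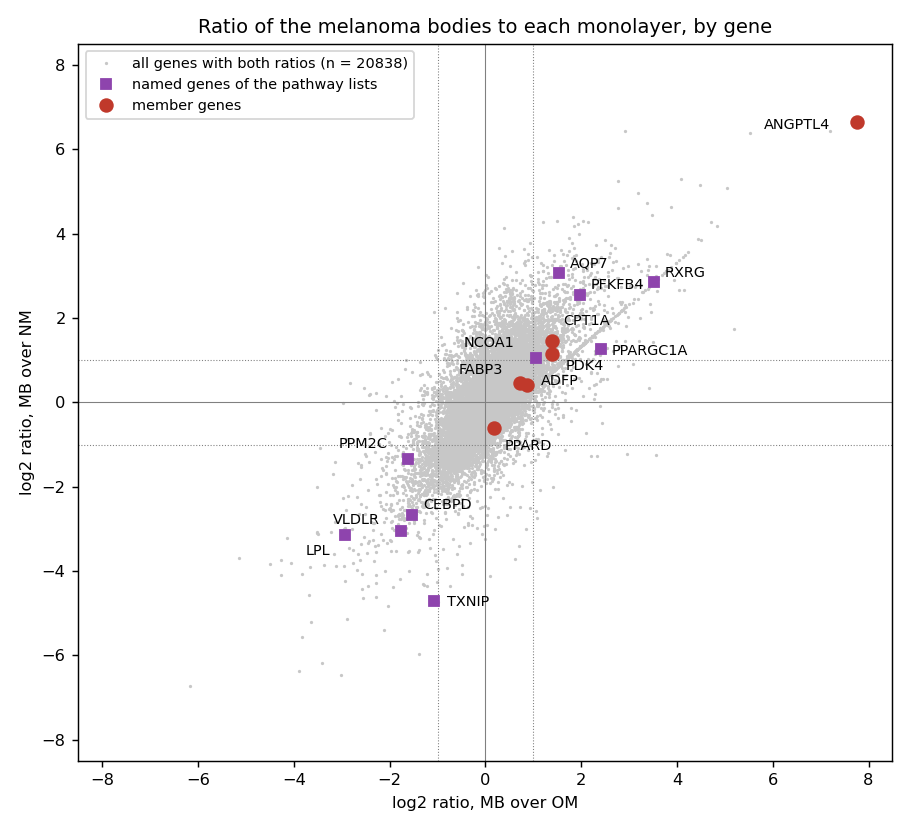
Log2 ratio of MB to OM (x axis) against log2 ratio of MB to NM (y axis), with 1 point for each of 20838 genes that have both ratios. Red circles are member genes and purple squares named genes of the pathway lists, dotted lines mark 2-fold, and the values of ANGPTL4 and RXRG against OM and of RXRG against NM are lower bounds. ANGPTL4 lies farthest to the upper right, CPT1A and PDK4 lie just past 2-fold on both axes, PPARD lies below 0 on the y axis, and LPL and VLDLR lie at the lower left.

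The ratios of 5 genes lay nearest to those of ANGPTL4, by Euclidean distance of both log2 ratios with MB, over 21726 genes and 3 arrays. Signals not well above background were taken at the probe's own signal or, if higher, the lowest signal well above background. The ratio of ANGPTL4 to OM and both ratios of the unnamed probe and of LUZPP1 are therefore lower bounds. The distances and their order hold only at those bounds. The nearest was a probe without a gene name (distance 0.61), with signals of 23.1 a.u. on OM and 34.5 a.u. on NM, neither well above background, and 3315 a.u. on MB. MGP, which encodes the matrix Gla protein, followed at 2.26 with 132, 5906 and 62.9 a.u. on OM, MB and NM. S100A4, a calcium-binding protein, lay at 3.14 with 1215, 39077 and 1033 a.u., and GFRA2, a receptor for neurturin, at 3.60 with 59.1, 1297 and 32.7 a.u. The fifth, LUZPP1, lay at 3.83, with 585 a.u. on MB and no signal well above background on either monolayer. Against OM, the signals on MB of MGP, S100A4 and GFRA2 were 45.8-fold, 32.9-fold and 22.5-fold higher, below the bound for ANGPTL4.

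The promoters of the members were read because ANGPTL4, PDK4 and CPT1A were high on the same array. PPAR and RXR bind as a pair to a direct repeat, AGGTCANAGGTCA, made of the half-site AGGTCA. The windows of RefSeq in GRCh38.p14, from 250 bases before to 50 after a gene's start, matched 7 of the 8 members (all but FABP4) with 12 windows, 6 of them of CD36. AGGTCA was found on neither strand in any of the 12 windows, while 13.8% of 35093 windows of all genes hold it, and the full repeat is in 0.0228% of all windows and in none of the members'. ACGTG, the core of the element bound by hypoxia-inducible factor, was found in the windows of ANGPTL4, FABP3 and ADFP (21.4% of all windows), and AGAACA, a half-site of the glucocorticoid receptor, in those of PDK4 and PPARD and in 2 of CD36 (14.8% of all windows). Those 2 CD36 windows, chr7:80638266-80638565 and chr7:80638392-80638691, overlap, so their matches may be the same site. TATAAA, the sequence of the TATA box, was found on either strand in the windows of ANGPTL4 and ADFP and in 2 of CD36 (11.5% of all windows). The ADFP match lies on the strand opposite to the gene. These are matches of letters and no measure of binding, and elements outside the windows were not searched.

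The 250 bases before the start are printed for the members that passed 2-fold on MB, at chr19:8363905-8364154 on the plus strand for ANGPTL4, chr7:95596517-95596766 on the minus strand for PDK4 and chr11:68844278-68844527 on the minus strand for CPT1A, in GRCh38.p14. Capitals mark ACGTG (read as CACGT on the other strand) and TATAAA for ANGPTL4 and AGAACA (read as TGTTCT on the other strand) for PDK4, the CPT1A stretch holds none of the motifs, and no match overlaps another.
ANGPTL4 promoter: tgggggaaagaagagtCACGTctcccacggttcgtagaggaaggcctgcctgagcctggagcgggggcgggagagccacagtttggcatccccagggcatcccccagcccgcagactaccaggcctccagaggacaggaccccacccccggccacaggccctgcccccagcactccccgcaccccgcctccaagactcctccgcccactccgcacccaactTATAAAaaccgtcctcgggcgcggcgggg
PDK4 promoter: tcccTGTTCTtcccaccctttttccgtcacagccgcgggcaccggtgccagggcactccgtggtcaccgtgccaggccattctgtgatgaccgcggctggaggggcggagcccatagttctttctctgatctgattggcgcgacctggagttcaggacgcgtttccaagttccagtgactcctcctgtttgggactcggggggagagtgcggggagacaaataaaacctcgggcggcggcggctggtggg
CPT1A promoter: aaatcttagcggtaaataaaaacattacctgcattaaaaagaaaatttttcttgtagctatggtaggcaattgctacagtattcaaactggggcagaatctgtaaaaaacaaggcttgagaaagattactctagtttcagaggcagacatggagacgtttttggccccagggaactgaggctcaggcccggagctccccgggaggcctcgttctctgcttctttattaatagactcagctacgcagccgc

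The PPAR and RXR receptors, PPARD included, and their coregulators were then compared, as a list of 15 genes. Of these 15, 4 were 2-fold or more higher on MB than on OM and 0 lower, with a median log2 ratio of 0.74. Over all genes tested, 6.66% were higher and 4.65% lower, with a median of 0.08. Against NM, 7 were higher on MB and 0 lower, with a median of 0.84. All genes gave 12.4% higher, 9.86% lower and a median of 0.00. The 7 include PPARA and RXRA, whose probes disagree, and NCOA2 by a bound (log2 ratio at least 1.03). Under both 75th percentile scaling and quantile normalization, 2 and 4 of the 15 were higher on MB than on OM and NM. RXRG, the gamma form of the PPAR partner, gave 5.77 a.u. on OM and 11.4 a.u. on NM, neither well above background, and 233 a.u. on MB, at least 11.4-fold above OM and 7.19-fold above NM. Normexp correction brought the log2 ratios of RXRG on MB to OM and to NM from 3.51 and 2.85 to 1.78 and 1.42. PPARGC1A, the coactivator that drives mitochondrial genes, gave 31.0, 161 and 60.3 a.u. on OM, MB and NM, 5.29-fold higher on MB than on OM and 2.39-fold higher than on NM, where normexp correction brought the log2 ratio of MB to NM from 1.26 to 0.61. A further PPARGC1A probe was at background on all 3 arrays. NCOA1, a steroid receptor coactivator, was 2.08-fold and 2.09-fold higher on MB than on OM and NM, and passed 2-fold in 5 and 4 of 8 alternative settings.

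The other receptors moved little or differed between their probes. PPARG gave 975, 910 and 961 a.u. on OM, MB and NM, with log2 ratios of MB to OM and to NM of −0.07 and −0.24, and RXRB gave 0.32 and 0.26. PPARA had log2 ratios of 0.97 and 1.08 at its brightest probe and 0.92 and 1.21 at another, whereas its remaining probes gave 0.02 and −0.36, and −0.40 and −0.32. RXRA probes went opposite ways, with log2 ratios of 1.00 and 1.41 at the probe with 3201, 6247 and 2103 a.u. on OM, MB and NM and of −0.83 and −1.50 at the probe with 1224, 675 and 1717 a.u.

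Of the lipases and angiopoietin relatives, LPL showed the largest difference, opposite to that of ANGPTL4. LPL, lipoprotein lipase, is the enzyme that ANGPTL4 inhibits, and its signal was 3082 a.u. on OM, 395 a.u. on MB and 3151 a.u. on NM. MB was 7.62-fold below OM (log2 ratio −2.93 ± 0.20) and 8.89-fold below NM (−3.15 ± 0.20), whereas NM and OM differed by 0.22 ± 0.20. Over the 8 alternative settings the ratio of MB to OM ran from −3.24 to −2.77. Of 13 genes in the list, 7 could be compared. Over all genes tested, 6.66% were 2-fold or more higher and 4.65% lower against OM, and 12.4% and 9.86% against NM. Between MB and OM 1 was 2-fold or more higher (ANGPTL2, 2.47-fold) and 1 lower (LPL), and between MB and NM 0 were higher and 1 lower (LPL). The hepatic and endothelial lipases LIPC and LIPG were at background on all arrays. GPIHBP1, which anchors lipoprotein lipase to capillary walls and is named LOC338328 on the array, gave 66.2, 69.9 and 68.9 a.u. on OM, MB and NM.

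**Figure D3:**
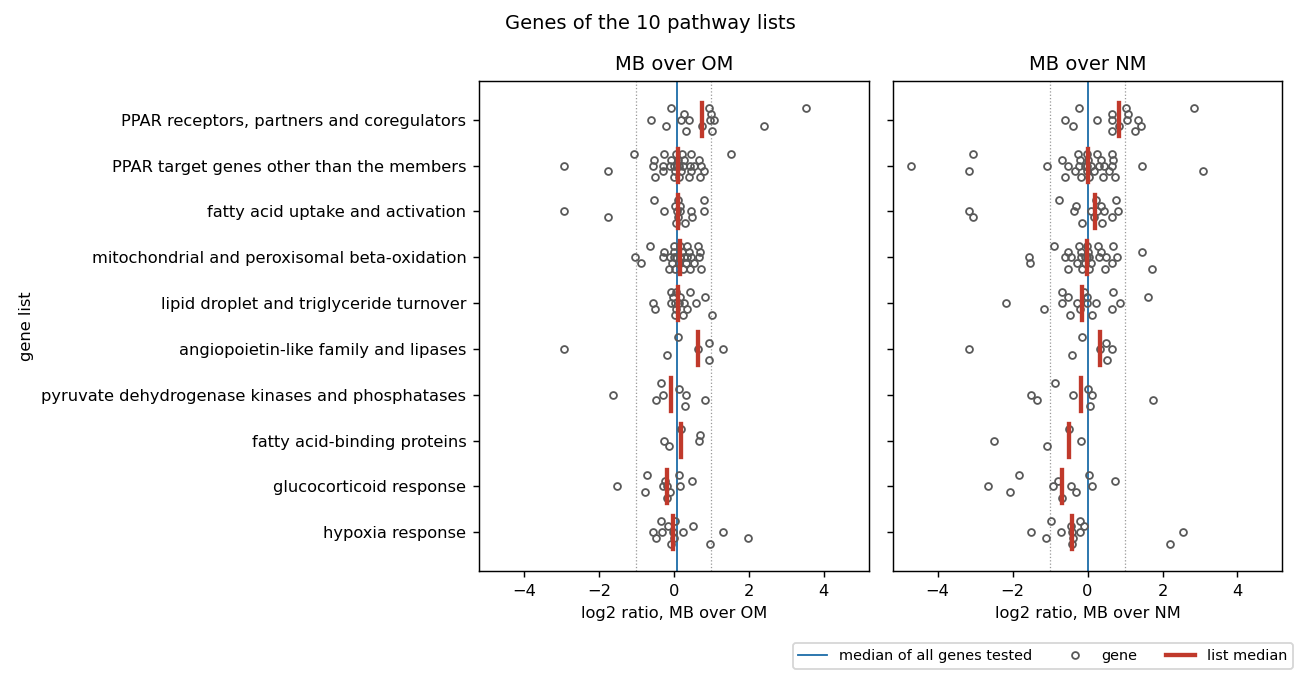
Log2 ratios of the genes of 10 pathway lists for MB over OM (left) and MB over NM (right), with 1 circle per gene at its brightest probe, lower bounds included. Red bars are list medians, the blue line is the median of all genes tested, and dotted lines mark 2-fold. The median of the receptor and coregulator list lies at 0.74 and 0.84, and the 2 low points shared by the target and uptake lists are LPL and VLDLR.

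Target genes of PPARs outside the members went both ways, and most did not reach 2-fold. Of 40 listed genes, 33 could be compared between MB and OM, where 1 was 2-fold or more higher and 3 lower with a median log2 ratio of 0.12. Of 32 compared between MB and NM, 2 were higher and 4 lower with a median of 0.01. The shares over all genes tested were 6.66% higher and 4.65% lower against OM, and 12.4% and 9.86% against NM. The gene higher on MB in both comparisons was AQP7, a glycerol channel, with 111, 314 and 33.4 a.u. on OM, MB and NM, a 2.88-fold and an 8.43-fold difference. Normexp correction brought the log2 ratios of AQP7 on MB to OM and to NM from 1.53 and 3.08 to 1.09 and 1.85. Besides LPL, those lower in both were VLDLR, a receptor for triglyceride-rich lipoproteins (657, 190 and 1414 a.u., 3.39-fold and 8.31-fold lower), and TXNIP, an inhibitor of glucose uptake and thioredoxin (6950, 3248 and 75835 a.u., 2.09-fold and 26.0-fold lower). TXNIP was 12.4-fold higher on NM than on OM. Genes past 2-fold in the NM comparison alone were SLC25A20, the mitochondrial carnitine carrier (2.76-fold higher on MB), and ADIPOQ, adiponectin (2.13-fold lower).

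Enzymes of fatty acid oxidation stayed near the median of all genes, although CPT1A, which opens the route, was higher on MB. Of 31 listed genes, 30 could be compared. All genes tested gave 6.66% higher and 4.65% lower against OM, and 12.4% and 9.86% against NM. Between MB and OM 0 were 2-fold or more higher and 1 lower (PECI, an enoyl-CoA isomerase, 2.05-fold), with a median log2 ratio of 0.17. Between MB and NM 2 were higher (CROT, a peroxisomal carnitine acyltransferase, 3.32-fold, and SLC25A20) and 2 lower (CPT1C, 2.98-fold, and DCI, also an enoyl-CoA isomerase, 2.88-fold), with a median of −0.01. Of the other CPT1 genes, CPT1B, the muscle form, had log2 ratios of MB to OM and to NM of 0.46 and 0.36, and CPT1C, the form known from brain, −0.89 and −1.57. HADHA and HADHB, the subunits of the trifunctional enzyme, had log2 ratios of MB to OM of 0.26 and 0.02.

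Uptake and activation of fatty acids gave a like picture. Of 19 genes, 16 could be compared, 0 were 2-fold or more higher on MB than on OM or NM, and the 2 lower in each comparison were LPL and VLDLR. Shares of all genes tested were 6.66% higher and 4.65% lower against OM, and 12.4% and 9.86% against NM. Median log2 ratios of MB to OM and to NM were 0.11 and 0.21 for the list.

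Among lipid droplet and triglyceride genes, the group to which ADFP belongs, 18 of 23 could be compared. LPIN1, a phosphatidate phosphatase and coactivator, was 2.03-fold higher on MB than on OM, and 0 were lower. It fell short of 2-fold under 75th percentile scaling and quantile normalization. Against NM, PNPLA3 was 3.07-fold higher, DGAT2, an enzyme of triglyceride synthesis, 2.24-fold lower and G0S2, an inhibitor of the triglyceride lipase PNPLA2, at least 4.54-fold lower on MB. Beside these stand 6.66% of all genes higher and 4.65% lower against OM, and 12.4% and 9.86% against NM. The median log2 ratios of the list were 0.10 and −0.14. PLIN1, the droplet protein of fat cells (PLIN on the array), was at background on all 3 arrays.

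None of the other pyruvate dehydrogenase kinases was 2-fold higher on MB. PDK1 was 1.4-fold lower on MB than on OM and 2.83-fold lower than on NM, while PDK2 had log2 ratios of 0.31 and 0.01 and PDK3 −0.34 and −0.86. PDP1 (PPM2C on the array), the phosphatase that opposes the kinases, gave 2970, 940 and 2151 a.u. on OM, MB and NM and was 3.09-fold and 2.55-fold lower on MB. The second phosphatase, PDP2, went the other way, 1.77-fold higher on MB than on OM and 3.33-fold higher than on NM. Of the 8 genes listed, 0 were past 2-fold higher and 1 lower against OM, and 1 and 2 against NM. For all genes tested the shares were 6.66% and 4.65% against OM, and 12.4% and 9.86% against NM.

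Among the other fatty acid- and retinoid-binding proteins, 5 of 10 could be compared, and 0 were past 2-fold between MB and OM. Shares of all genes tested were 6.66% higher and 4.65% lower there, and 12.4% and 9.86% against NM. FABP5, the epidermal form, had log2 ratios of MB to OM and to NM of 0.69 and −0.16. Lower on MB than on NM were FABP6, a bile acid carrier (5.64-fold), and CRABP2, a retinoic acid carrier (2.11-fold), each of which was also higher on NM than on OM, by 5.18-fold and 3.36-fold.

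ANGPTL4 and PDK4 are also known to respond to glucocorticoids, and ANGPTL4 to low oxygen, so lists for both responses were set beside them. Of 12 glucocorticoid-responsive genes, 11 could be compared, 0 were 2-fold or more higher on MB in either comparison, 1 was lower than on OM and 3 were lower than on NM. CEBPD, a transcription factor of the acute response, was 2.88-fold lower on MB than on OM and 6.34-fold lower than on NM, and TSC22D3 and NFKBIA, an inhibitor of NF-kB, were 4.18-fold and 3.54-fold lower than on NM. Over all genes tested, 6.66% were higher and 4.65% lower against OM, and 12.4% and 9.86% against NM. The median log2 ratios of the list were −0.18 and −0.69.

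Of 15 hypoxia-responsive genes, 2 of the 14 compared were 2-fold or more higher on MB than on OM and 0 lower, and 2 of the 13 compared were higher and 2 lower on MB than on NM, with medians of −0.01 and −0.40. PFKFB4, which controls glycolysis, gave 1223, 4715 and 720.0 a.u. on OM, MB and NM and was 3.94-fold and 5.88-fold higher on MB. CA12, a carbonic anhydrase, was 2.49-fold higher on MB than on OM, and PFKFB3 was 4.64-fold higher on MB than on NM. Lower on MB than on NM were PDK1 and ANKRD37. The shares of all genes tested were 6.66% higher and 4.65% lower against OM, and 12.4% and 9.86% against NM. CA9, a widely used marker of low oxygen, was at background on all 3 arrays.

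Markers of cells that use these genes in the body were read on the same arrays. Of 6 adipocyte markers 4 were well above background on each array, with summed signals of 1662, 1668 and 2513 a.u. on OM, MB and NM, and leptin and PLIN1 were at background throughout. Of 7 muscle markers 2, 2 and 1 were well above background on OM, MB and NM, with myoglobin, CKM and DES at background, and ACTC1 giving most of the summed 23498, 24249 and 13811 a.u. MYH7, a myosin heavy chain, was higher on MB, with 31.5, 114 and 28.0 a.u. on OM, MB and NM, 3.71-fold above OM and at least 3.52-fold above NM. Endothelial markers summed to 260, 516 and 440 a.u., with CDH5 at background on all 3 arrays and 2, 2 and 3 of 6 well above it. PECAM1 was at least 4.29-fold and 2.70-fold and VWF 2.15-fold and 3.66-fold higher on MB than on OM and NM, whereas TEK and CLDN5 were at least 11.7-fold and 5.78-fold lower on MB than on NM. Macrophage markers summed to 50085, 2054 and 5402 a.u., of which MSR1 gave 45009 a.u. on OM at a single spot, while its other probes were at background on every array. Of these 7 markers, 6, 4 and 4 were well above background on OM, MB and NM. CD68 gave most of the sums on MB and NM, with 4716, 1727 and 4944 a.u. on OM, MB and NM. MARCO, like MSR1, was well above background on OM alone. The part of other cell types in the member values was not tested.

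**Figure D4:**
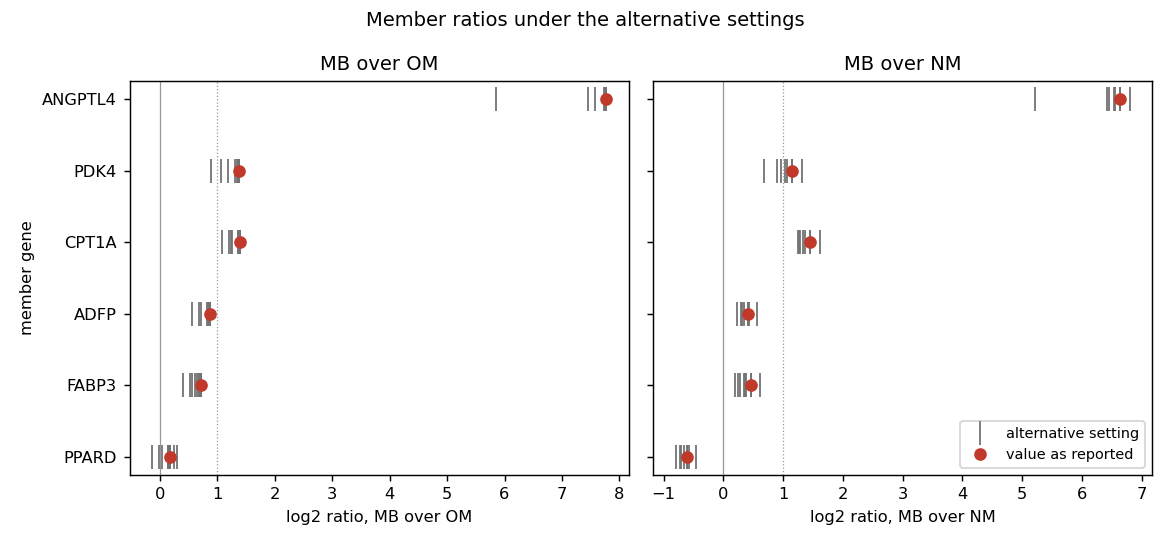
Log2 ratios of the 6 measured members for MB over OM (left) and MB over NM (right), with the reported value as a red circle and each alternative setting as a grey tick. The solid line marks 0 and the dotted line 2-fold. ANGPTL4 stayed far past 2-fold in every setting that gives it a ratio (none for MB over OM where both arrays had to be well above background), CPT1A stayed past it, PDK4 crossed it, and PPARD crossed 0 for MB over OM.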

How the data were processed

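Per the file headers, the authors deposited, for 1 array per population, spot intensities from Agilent Feature Extraction (9.5.3.1, processing notes 9.5), on a linear scale, with local background subtracted, a surrogate in place of low values and no scaling between arrays. The series value table holds the same intensity values (130128 of 130128 within 0.1%). Each array has 43376 spots for 41000 probes.

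Control spots and outlier spots (77, 79 and 81 on OM, MB and NM) were left out, spots of a probe were averaged, and arrays were scaled to GAPDH, ACTB and HSP90AA1 (each a probe of 10 spots), after the study's methods, which name HSP90 without the gene, so the choice of HSP90AA1 was made here for its 10 spots. A gene is represented by its probe of highest mean signal, and is compared where at least 1 array of the pair is well above background. Ratios were counted at 2-fold and at the study's 5-fold. Genes named are all members, every PPAR and RXR receptor, list genes past 2-fold against both monolayers, and the 5 nearest to ANGPTL4. Other genes were named after their values were seen. Members and the 10 gene lists, which share genes, were chosen with earlier results of these data known. Symbols were matched to RefSeq (GRCh38.p14). Calls were tested on simulated data in which only bright probes changed, so calls on dim signals and on bounds were not covered. Alternatives used limma 3.58.1 (R 4.3.3) for normexp with offset 50, and the rest Python 3.11.15 with numpy 2.4.6 and pandas 2.3.3. Proteins were not used here.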

Additional observations from a re-analysis of the deposited data

How the results depend on the processing

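ANGPTL4 kept its direction under every alternative that gave it a ratio, and it had no ratio of MB or NM to OM when both arrays had to be well above background. Its log2 ratio of MB to OM was 7.58 with 75th percentile scaling, 7.46 with spike-ins and 5.85 with normexp correction. Its log2 ratio of MB to NM was 6.53 with 75th percentile scaling, 6.42 with quantile normalization, 6.80 without scaling, 6.55 with the geometric mean of housekeeping genes, 6.46 with spike-ins and 5.21 with normexp correction. Normexp with an offset of 50 adds to every signal and so shrinks ratios of dim probes. The count of 1 member past 2-fold from OM to NM became 0 without scaling, with normexp correction and when both arrays had to be well above background, since it rests on a bound. The count of 3 members past 2-fold on MB became 2 against OM with normexp correction and with both arrays above background, and 2 against NM with quantile normalization, spike-ins and normexp correction. Of 40 counts over the gene lists, 36 stayed within 1.5 times with 75th percentile scaling, 37 with quantile normalization and 39 with both arrays above background. The median log2 ratio of all genes for MB over OM moved from 0.08 to −0.11 with 75th percentile scaling and to −0.23 with spike-ins. No paired analysis was possible because each population has 1 array, and the slide could not be a block because all arrays share it. With 1 array each, no replicate could be left out, and the number of arrays limits every fold.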

Other observations

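The MSR1 probe that was bright on OM gave 45009 a.u. there and 5.46 and 8.17 a.u. on MB and NM, while the other MSR1 probes read 4.18 to 6.69 a.u. on all 3 arrays. The RXRA probes, on the same accession, had opposite signs in both comparisons with MB, and which of them reflects the gene's transcript was not tested.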
